A study of Mus musculus with 5 samples.

Results

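The genes described here encode the proteins of the cytosolic ribosome. They were taken by symbol from the protein-coding genes of the mm9 GENCODE annotation: Rpl or Rps followed by a digit, Rplp, or Rpsa, without pseudogene symbols and without the Rps6k kinase genes. The symbols named 85 genes, and 83 of them had a model with more than 1 exon, of 19443 such protein-coding genes in all. Rpl10l and Rps4y2 had 1 exon and were left out. Rps19bp1 entered by its symbol but encodes a protein that binds a ribosomal protein, not a subunit. The other genes were assigned to a subunit by symbol alone. The set held 50 genes with Rpl or Rplp symbols, called large-subunit genes here, 32 with Rps or Rpsa symbols, called small-subunit genes, and Rps19bp1.

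Run-on RNA was sequenced from mouse embryonic stem cells (MESC, the line V6.5, passages 12 to 14, 3 samples) and from mouse embryonic fibroblasts (MEF, made from a male embryo of day E13.5, passage 2, 2 samples), both from the cross C57Bl/6(f) x 129/Sv(m). The stem cells grew with LIF on irradiated feeder cells, and the fibroblasts grew without LIF and with less serum. In global run-on sequencing (GRO-seq), polymerases that are engaged on DNA add brominated uridine to their RNA after the nuclei are taken out, and that RNA is captured and sequenced, so reads show where polymerase was and on which strand. The authors' files pool the samples of each cell type, so each value below comes from 1 pooled library per cell type, the spread between samples is not known, and no p-value is given between the cell types.

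A ribosome needs most of its proteins in equal numbers, and growing cells keep the ribosomal protein genes among the most transcribed. Their messenger RNAs begin with a C in a short run of pyrimidines, the 5′ terminal oligopyrimidine (TOP) tract, through which mTOR and the RNA-binding protein LARP1 set translation. The genes are short, many hold small nucleolar RNAs (snoRNAs, guides for ribosomal RNA modification) in their introns, and they have many processed pseudogenes, copies of the spliced message elsewhere in the genome.

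There were 8616592 reads from MESC and 6583644 from MEF. Densities are given as RPKM, reads scaled to gene length in kb and to the library's reads outside the mitochondrial genome. Loci similar to ribosomal DNA held 11.5% and 16.4% of the reads. The 8 stem cell markers examined were all at least 4-fold denser in MESC, and the 7 fibroblast markers at least 4-fold denser in MEF, where 3 of 4 macrophage and blood markers tested were also at least 4-fold denser. The fibroblast markers Col1a1 and Thbs1 still held 84 and 369 reads in MESC, against 4826 and 10016 in MEF. Whether feeder cells or blood cells contributed to a value below was not tested. In pooled cultures, more cells with a transcribed gene and more transcription per cell cannot be told apart. Intervals are exact 95% intervals (Clopper-Pearson) that cover counting error only, and since no molecular identifiers mark copies of 1 molecule, they may be too narrow.

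The sequences at the starts of 8 genes with the most promoter reads, each library scaled to its total, are shown because reads piled up on single bases there. Each line gives 12 bases before the most-read base over both libraries scaled to their totals, that base and 17 after it, 5′ to 3′ on the gene's strand in mm9, with the pyrimidine run that holds the most-read base in capitals.
Rps9 (chr7:3655628-3655657, plus strand): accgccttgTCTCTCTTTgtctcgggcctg
Rps26 (chr10:128063540-128063569, minus strand): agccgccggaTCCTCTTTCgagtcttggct
Rpl37 (chr15:5066643-5066672, plus strand): ttctcttccggTCTCTTTggcctcgccggt
Rpl36a (chrX:131120215-131120244, plus strand): tctagCCTCTCTCTTTCCgagctgctagcg
Rpl3 (chr15:79913765-79913794, minus strand): ctcctggtcgCTCTCTatctgcggcgtgtg
Rpl23 (chr11:97643681-97643710, minus strand): ctgtactaaCTTCCTTTCTgaccctttccg
Rps29 (chr12:70260059-70260088, minus strand): agccgactcgTTCCTTTCTCCTCgttgggc
Rps28 (chr17:33961350-33961379, minus strand): ggtgaggcgactgcgggtgtttagaaacct

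In 7 of these 8 genes the most-read base lay in a run of 6 to 13 pyrimidines, 5 to 97 bp after the annotated start. In Rpl37, a large-subunit gene, 125 of 455 promoter reads in MESC (27.5%, interval 23.4 to 31.8) and 65 of 320 in MEF (20.3%) began on this single base. Rpl3 had 103 of 350 reads there in MESC (29.4%) and 35 of 183 in MEF (19.1%). Rps9, which encodes a small-subunit protein, had 195 of 1083 and 47 of 426. Rpl36a had 140 of 585 (23.9%) and 15 of 193 (7.77%), and Rps26 had 47 of 366 (12.8%) and 22 of 397 (5.54%). The intervals of the MESC and MEF shares did not overlap in Rps9, Rpl36a and Rps26, and overlapped in Rpl37 and Rpl3. Rpl23 had 23 of 283 (8.13%) and 22 of 227 (9.69%). In MESC alone the most-read base of Rpl23 was its neighbour, with 35 reads (12.4%), so the order of the libraries depends on the base. Rps29 had 98 of 257 (38.1%) and 43 of 125 (34.4%), but its 35-base window occurs 4 times in the genome, so its reads are uncertain. Rps28 was the exception: no base held more than 9 of its 229 promoter reads in MESC or 7 of 153 in MEF, and the base shown was in no pyrimidine run.

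Other ribosomal protein genes had such starts too, found in more genes in MESC than in MEF. The minimum of 10 reads used below was not scaled to depth, and MESC has more reads than MEF. The counts below include the genes printed above. A promoter here runs from 50 bp before to 300 bp after the annotated start. In MESC, 24 of the genes had a promoter position with at least 10 reads, and in 21 of them (87.5%) the most-read position and the next 4 bases were all C or T, against 3.83% of the 809 genes of any kind with such a position. In MEF it was 9 of 14 (64.3%), against 2.89% of 450. The first base was C in 22 of 24 and in 10 of 14, against 9.77% and 5.33%, and C or T in 23 of 24 and in 11 of 14, against 11.9% and 6.89%. The genes outside the pattern in MESC were Rps9 and Rpl3, with 4 pyrimidines in 5 at their most-read base, and Rpl23a, with 3. In MEF they were Rpl3 and Rps3, with 4, Rpl23a and Rpl27, with 3, and Rps23, with 1. Of the genes not printed above, only Rps16, Rplp2 and Rpl10 showed the pattern in MEF. The most-read base of Rps9 in MESC lies 2 bp from the one printed above, which held 1 read fewer. Of 11 genes with such a position in both libraries, 8 had it at the same base and all 11 within 2 bp. The 10 genes of other kinds with 5 pyrimidines in MESC were Eif4a2, an initiation factor with the largest pile (562 of 884 promoter reads), Eef2, elongation factor 2 (202 of 453), 1500012F01Rik (86 of 180), Hsp90ab1, Npc2, Tubb5, Hmga1, Gnb2l1, Slc25a4 and Tpt1. Eef2, Gnb2l1, which encodes the ribosome-bound protein RACK1, and Tpt1 are known for TOP messages. These genes, and Rpl23a, Rps3, Rpl27 and Rps16 above, were picked once their values were known.

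Over all promoter reads of the 80 ribosomal protein genes without same-strand overlap, 26.0% in MESC (25.1 to 27.0) and 14.3% in MEF (13.4 to 15.3) began on 5 pyrimidines, against 3.78% and 2.59% over all genes. The windows themselves offer little more: 6.34% of their positions begin 5 pyrimidines, against 5.52% over all genes. Counting each position once, the shares were 9.56% and 8.70%, against 3.22% and 2.47%. Within MESC the share was 19.8% among reads of 35 bases (18.6 to 21.2) and 30.6% among reads of 36 bases (29.3 to 31.9). All MEF reads have 35 bases, and at that length the MESC share was still above the MEF share. In Rpl36a, 124 of the 140 MESC reads on the base shown had 36 bases, whereas in Rpl3 39 of 103 did. Of the 122 promoter reads of Rpl36a with 35 bases, 16 lay on that base.

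Ribosomal protein genes were among the genes with the highest read density in both cell types. Over the whole gene, from annotated start to end, 78 of the 83 were compared: Rpl13, Rpl13a and Rpl19 overlap another gene on the same strand, and Rpl3l and Rpl39l held fewer than 50 reads in each library. The median density was 18.2 RPKM in MESC and 12.8 in MEF, against 1.11 and 0.992 over all 10657 genes tested. The median ribosomal protein gene stood at percentile 99.2 of all genes tested in MESC and 98.7 in MEF. Among the 100 densest genes tested, 47 in MESC and 27 in MEF were ribosomal protein genes. The totals used next include loci similar to ribosomal DNA, which held a larger share of the reads in MEF. Together the ribosomal protein genes took 0.555% of the MESC reads (0.550 to 0.560) and 0.394% of the MEF reads (0.389 to 0.399). They are short, with a median length of 3226.5 bp against 26972 bp, so these ranks are per kb, and a short gene has a larger part of its length near the start, where reads pile up.

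**Figure D1:**
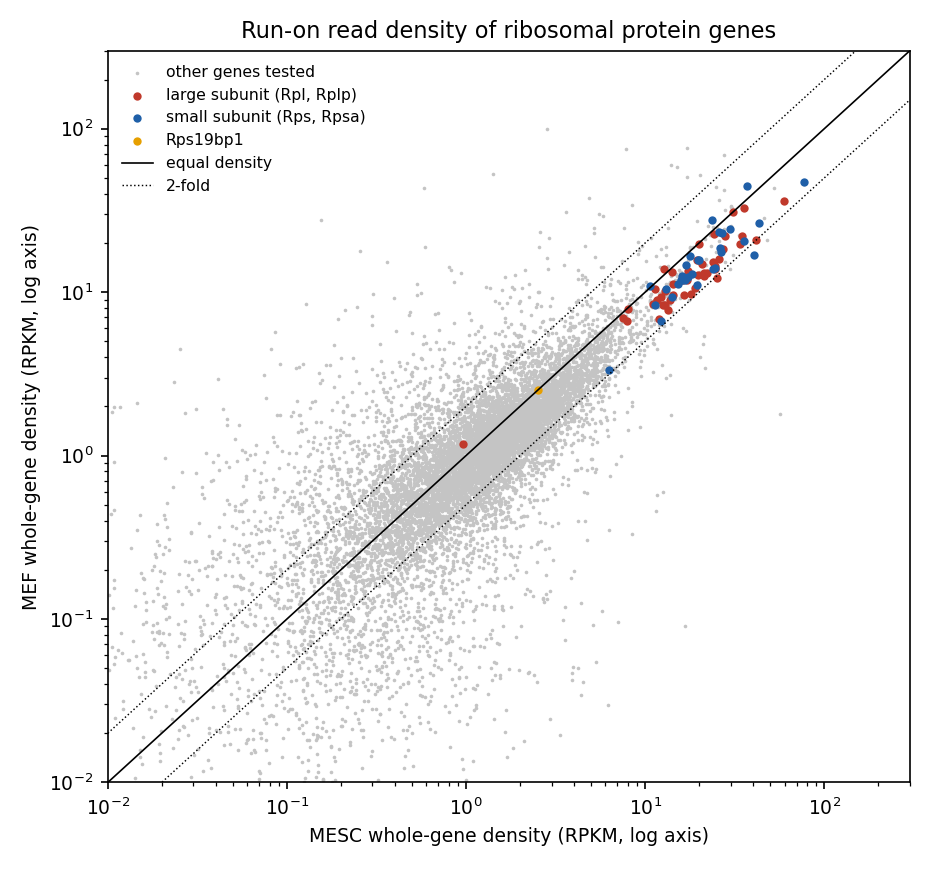
Whole-gene density in MESC (x axis) and MEF (y axis), both in RPKM on log axes, for 78 ribosomal protein genes (coloured) and the other genes tested with reads in both libraries (grey); lines mark equal and 2-fold different density. The coloured points form a narrow band at the upper right, mostly just below the line of equal density, with medians of 18.2 and 12.8 RPKM.

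The densest gene was Rps9, a small-subunit gene on chromosome 7 (3655595 to 3658503, 5 exons), with 77.4 RPKM in MESC and 47.0 in MEF. Rpl3, which encodes one of the largest proteins of the large subunit, had 59.8 and 36.1 RPKM. Rps26 had 36.9 and 44.8, Rps12 had 43.3 and 26.4, Rpl37 had 35.8 and 32.9, and Rpl36a had 41.6 and 20.9. The intervals of the ratio lay above 1 in Rps9, Rpl3, Rps12 and Rpl36a, spanned 1 in Rpl37 and lay below 1 in Rps26. At the low end were Rps27l, a paralog of Rps27, with 6.26 and 3.33 RPKM, and Rps19bp1, which is no ribosomal protein gene, with 2.53 and 2.51. Rpl24 had 0.964 and 1.17 RPKM in its longest annotated model (chromosome 16, 55973917 to 56009026), but that model begins past the exons of the ribosomal protein. Over the transcript that holds them (55966388 to 55971548), Rpl24 had 7.80 and 9.17 RPKM.

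The comparison of the cell types asked whether ribosomal protein genes carried more polymerase in stem cells. Of 78 genes, 73 were denser in MESC, against 62.3% of all genes tested, and the median ratio was 1.40-fold (log2 0.49), against a median log2 ratio of 0.25 over all genes. The interval lay above 1 in 62 genes (background 47.5%) and below 1 in 3 (background 26.5%). The folds were small: Rps20 and Rplp1 were at least 2-fold denser in MESC, against 17.6% of all genes, and none was at least 2-fold denser in MEF, against 12.2%. None reached 4-fold in MESC or in MEF (backgrounds 7.04% and 5.36%). The ratios were also close together, with a standard deviation of 0.32 on the log2 scale against 1.41 over all genes. Both values hold counting error, which weighs less in dense genes.

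The shift depends on the scale. With all genes centred at 0, the members' median log2 ratio was 0.24, and 60 of 78 stayed above 1, with 39 intervals above 1 and 6 below. This scaling places the median of all genes at a ratio of 1. Interval counts over all genes are not given at this scale, so the 39 and 6 have no background. Relative to the median of all genes, the ribosomal protein genes stood 0.24 higher, and from 0.13 (each position counted once) to 0.35 (no read minimum) over the 16 alternatives tried. The MESC file holds reads of 2 lengths, and the sources used here do not say whether these come from different samples. Set against each other, the lengths gave the ribosomal protein genes log2 ratios with a median of -0.00 and a standard deviation of 0.30. This was about as wide as the ratios between cell types, and over all genes the standard deviation was 0.36. The lengths differed by at least 2-fold in 1 of 78 members and in 132 of 10161 genes. The interval excluded 1 in 21 of 78 members and in 2090 of 10161 genes. With each read length taken alone and set against the same MEF reads, 65 of 78 genes were denser in MESC both times, against 56.4% of all genes. The interval lay above 1 both times in 51 (65.4%, against 38.2%) and below 1 both times in 0, against 21.6%. These comparisons share the MEF library.

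**Figure D2:**
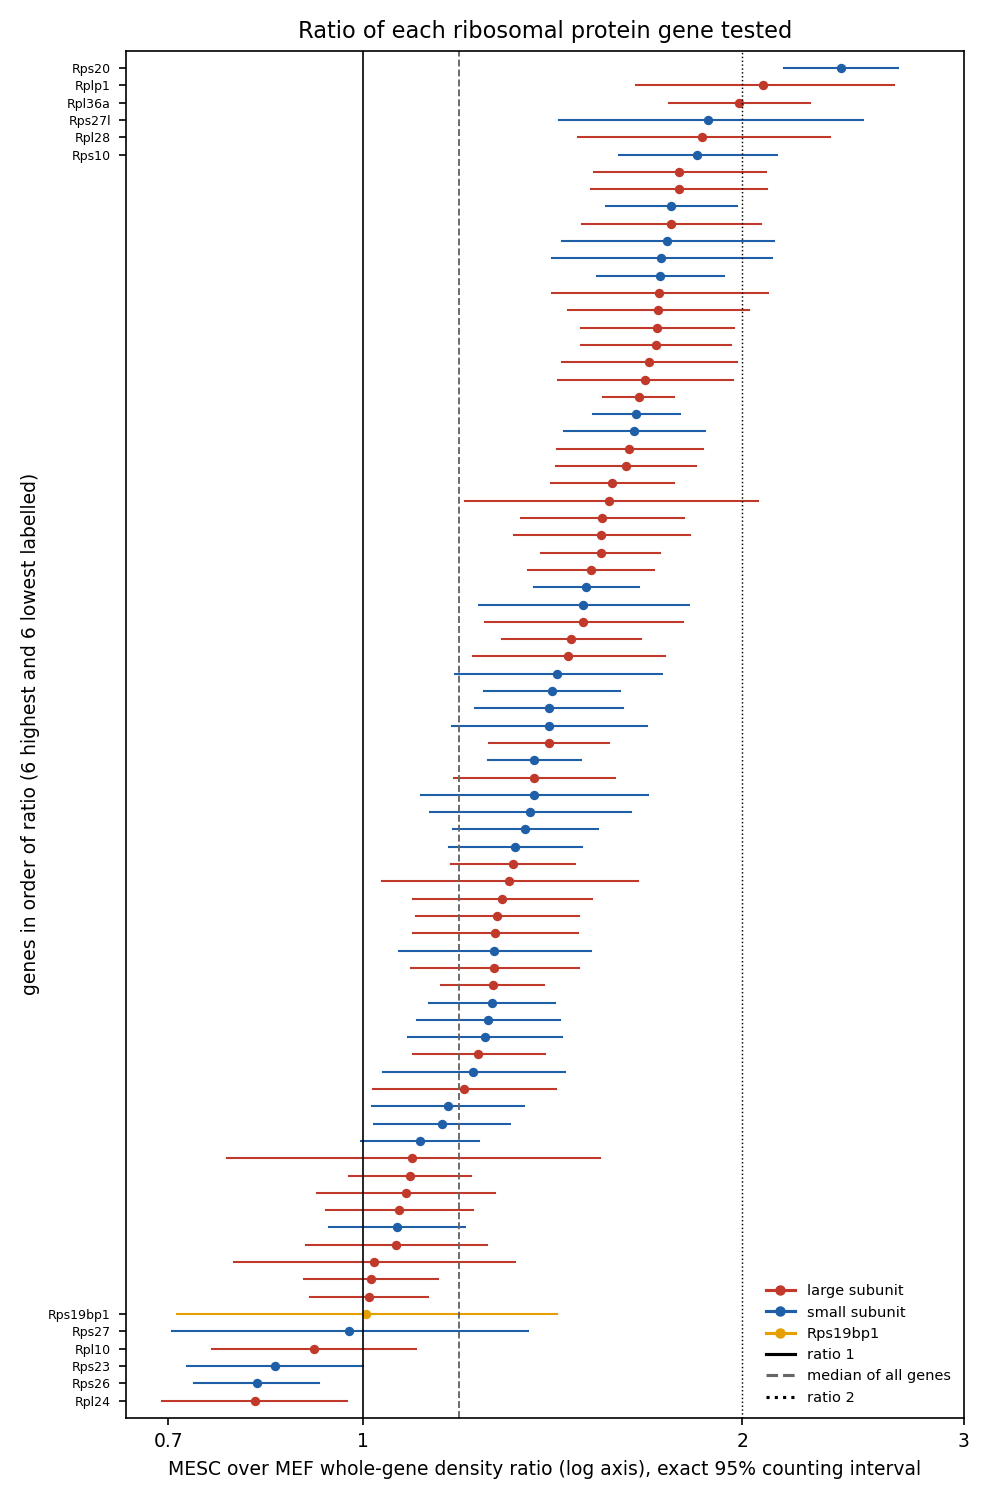
Ratio of whole-gene density in MESC over MEF for each of 78 ribosomal protein genes (log axis), with exact 95% intervals that cover counting error only; the 6 highest and 6 lowest genes are labelled. Most points lie between 1 and 2; Rps20 stands highest at 2.40 and the longest model of Rpl24 lowest at 0.820, and the dashed line marks the median of all genes tested.

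The large and small subunits gave close values. The 45 large-subunit genes tested had a median log2 ratio of 0.55, with 43 above 0, and the 32 small-subunit genes had 0.45, with 29 above 0. Their median densities were 18.1 and 18.9 RPKM in MESC and 12.6 and 14.0 in MEF. A list of 13 genes was taken from those mutated in Diamond-Blackfan anaemia, a failure of red cell production. These had a median log2 ratio of 0.45, and the interval lay above 1 in 11 and below 1 in 1, Rps26. None of the 13 was at least 2-fold different. The highest of them were Rps10 (1.84-fold, 1.60 to 2.13), Rps24 (1.76-fold, 1.56 to 1.98) and Rpl5 (1.54-fold, 1.39 to 1.72), which with Rpl11 binds the p53 inhibitor Mdm2.

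Among single genes, Rps20 stood highest, with 1509 reads in MESC and 483 in MEF, a ratio of 2.40 (2.16 to 2.66). Its model has a last exon of 3350 bp, which held 1266 of the MESC reads and 388 of the MEF reads. Its promoter held 50 reads against 36, a ratio of 1.07 (0.680 to 1.68). Rplp1, an acidic protein of the ribosome stalk, had 271 reads against 100, a ratio of 2.08 (1.65 to 2.64). With the 35-base MESC reads alone, the ratio was 2.24 for Rps20 and 1.70 for Rplp1. With each position counted once, both fell below 2-fold, at log2 0.93 and 0.88.

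Rpl36a on the X chromosome had 856 reads against 330, a ratio of 1.99 (1.75 to 2.27), but this value rests on 1 set of MESC reads. It was 1.13 (0.952 to 1.34) with 35-base reads alone and 2.73 (2.39 to 3.13) with 36-base reads alone. Rpl28 had 262 against 108 reads, a ratio of 1.86, and moved in the same way, from 1.22 (0.905 to 1.65) to 2.41 (1.89 to 3.09). Rps27l, with 184 against 75 reads, kept a ratio of 1.87 and 1.89 under both read lengths. Rps10 held 649 against 270 reads.

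The genes at the other end were close to equal or denser in MEF. Rps26 had 625 reads in MESC and 582 in MEF, so MEF was denser, with a MESC over MEF ratio of 0.823 (0.734 to 0.923). That interval was 0.824 to 1.08 with 35-base reads alone and 0.621 to 0.827 with 36-base reads. Rps23 had 324 against 292 reads (0.851, 0.724 to 1.00). Rpl24 had 290 against 271 reads in its longest model (0.820, 0.693 to 0.972) and 345 against 311 over its ribosomal transcript (0.850, 0.727 to 0.995). Rpl10 (0.914), Rps27 (0.975) and Rps19bp1 (1.01) had intervals that span 1. These 6 genes lay below the median of all genes, as did 12 of the other members.

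The paralogs listed here are named after a parent ribosomal protein gene, and some replace the parent protein in certain tissues. All 6 were less dense than their parents in MESC, and in MEF all but Rpl22l1. Rpl3l, the heart and muscle form of Rpl3, held 8 reads in MESC and 1 in MEF, under the minimum, where Rpl3 held 2884 and 1336. Rpl39l, best known from testis, held 9 and 31 reads, so the few reads it had were mostly in MEF, while Rpl39 held 348 and 251. Rpl22l1 had 12.2 RPKM in MESC and 9.37 in MEF, next to 12.6 and 8.33 for Rpl22, so this pair was of like density, with ratios of 1.31 (1.04 to 1.65) and 1.52 (1.35 to 1.70). Rpl7l1 had 11.1 and 8.44 RPKM, against 16.4 and 9.58 for Rpl7. Rpl36al had 7.56 and 6.91, against 41.6 and 20.9 for Rpl36a. Rps27l had 6.26 and 3.33, against 10.6 and 10.9 for Rps27, and the intervals of their ratios, 1.88 (1.43 to 2.49) for Rps27l and 0.975 (0.705 to 1.35) for Rps27, did not overlap. Exons of paralogs and pseudogenes share sequence, and reads from one may have been assigned to another or lost.

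At promoters the median ratio of the ribosomal protein genes was near that of all genes. Of 70 with at least 20 promoter reads in 1 library, 8 were at least 2-fold denser in MESC, against 20.5% of all promoters tested, and 1, Rpl29, was at least 2-fold denser in MEF, against 9.29%. None reached 4-fold in either direction (backgrounds 5.66% in MESC and 2.94% in MEF). The median log2 ratio was 0.29, against 0.30 over 4455 promoters, and this difference ran from -0.05 to 0.43 over 12 alternatives. Among those above 2-fold were Rpl32 (42 against 10 reads), Rpl37a (243 against 59), Rpl28 (78 against 21), Rpl14 (132 against 40), Rpl7a (56 against 18), Rpl36a (585 against 193) and Rps15 (137 against 46). With each position counted once none of the 67 promoters was 2-fold denser in MESC, against 11.5% of all promoters. Rpl29 had 19 reads against 30, Rps26 had 366 against 397, and Rpl7l1 had 69 against 99, a ratio of 0.534 (0.387 to 0.734), although over the whole gene Rpl7l1 was denser in MESC (832 against 485 reads, 1.32-fold).

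The density at the start, relative to the rest of the gene, was lower than over all genes, by an amount that depends on the read minimum. The promoter-to-downstream index divides promoter density by the density from there to the annotated end. It had a median of 1.50 over 69 genes in MESC and 1.94 over 64 in MEF, against 9.63 and 12.0 over all genes with enough reads. The index was at least 2 in 29 of 69 (42%) and 31 of 64 (48.4%), against 95.4% and 95.7% of all genes. The index needs at least 20 reads in the promoter and 20 downstream, and a gene of low density enters only with a dense promoter, which raises the value over all genes. The downstream part is also of unlike length, since the median gene length was 3226.5 bp here and 26972 bp over all genes. The effect of length was not tested. Without the promoter minimum, an alternative added after seeing the data, the medians were 1.43 over 78 ribosomal protein genes in MESC and 1.70 over 79 in MEF, against 3.93 and 3.71 over all genes. In 25 of the 83 genes another annotated start more than 200 bp away held more reads. The matching share over all genes is not given, so this count is not compared with them. With the busiest annotated start, the medians were 2.25 and 2.41, against 9.79 and 11.8.

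Among genes measured in both libraries, the index spanned a wide range. Rps19bp1 had the highest, 18.3 in MESC (11.5 to 29.8) and 12.9 in MEF (7.61 to 22.1). It was followed by Rpl36a (12.9 and 8.38), Rpl37 (8.99 and 8.87), Rps26 (6.75 and 10.2) and Rps9 (9.49 and 6.71). The last 4 of these carry the pyrimidine starts shown above, and the 30 bases shown count in their promoter windows. At the low end, Rps12 had 0.395 in MESC (0.296 to 0.520) and 0.816 in MEF. Rps20 had 0.394 and 0.925, Rpl21 had 0.758 and 0.646, and Rps19 had 0.666 and 0.835. Their windows at the annotated start were thus no denser than the rest of the gene. In Rpl21, however, the most-read promoter base in MESC lay 255 bp after the annotated start, with 17 of 49 promoter reads. Most of its promoter window lies before that base. Of 63 genes measured in both libraries, the index was higher in MESC in 24 (38.1%), near the 39.4% of all genes.

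**Figure D3:**
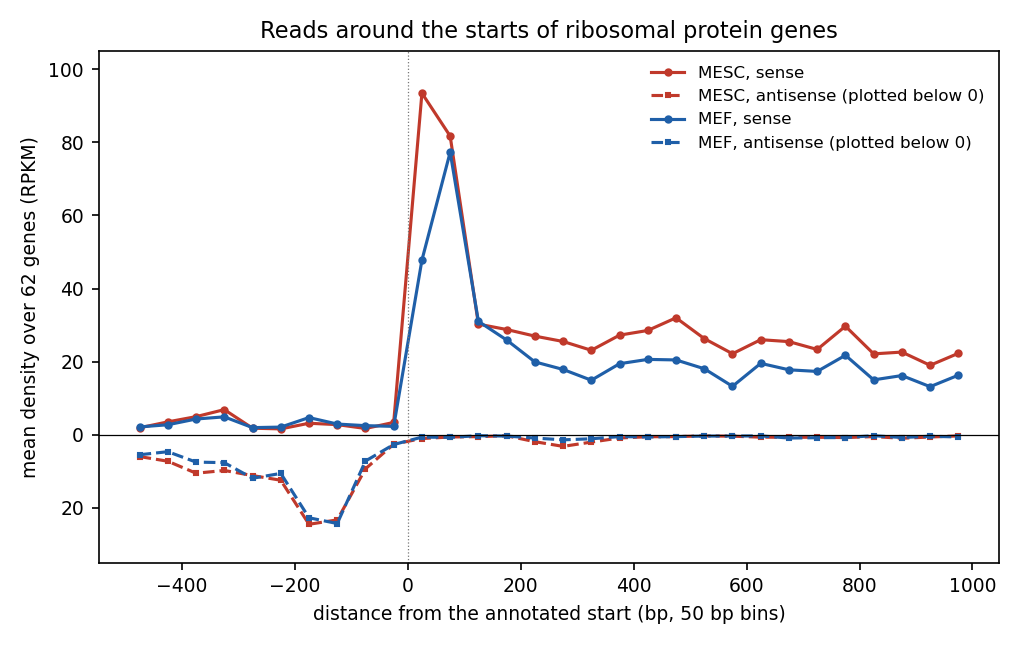
Mean density in 50 bp bins around the annotated start, sense reads above 0 and antisense reads below, for 62 ribosomal protein genes with no start of another gene within 2000 bp. Sense reads peak in the first 100 bp after the start, at a mean of 93.4 RPKM in MESC and 77.3 in MEF, and antisense reads 100 to 200 bp before it. The antisense means hold the many reads of Rps29, whose window before the start holds an annotated small RNA gene on that strand. The sense means hold the large piles of single genes such as Rps9 and Rpl36a: the median gene had 10.5 RPKM in MESC in the first 50 bp, and 30.3 in MESC and 27.4 in MEF in the next 50 bp.

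Upstream antisense reads, on the opposite strand in the 500 bp before the start, were present at most ribosomal protein promoters. Of 57 promoters with at least 20 sense reads and no other start nearby in MESC, 54 had at least 3 antisense reads (background 85.1%), and of 53 in MEF 43 did (background 73.4%). Antisense density was 0.231 of the sense density in MESC at the median and 0.145 in MEF, near the 0.234 and 0.132 of all genes. It exceeded sense density in 6 genes in each library, 10.5% and 11.3% of those measured, with backgrounds of 13.1% and 7.98%. Rps29 had the highest ratio, with 728 antisense reads in MESC and 862 in MEF, but its window holds an annotated small RNA gene (misc_RNA) on that strand. Rpl28 had 175 and 83 antisense reads against 78 and 21 sense reads, and Rplp2, another stalk protein gene, had 116 and 63 against 61 and 26. Rpl36a and Rps26, with strong sense piles, had low ratios of 0.0288 and 0.0153 in MESC. Rpl38 and Rps15a had 0 antisense reads in both libraries, and a count of 0 does not show that none are made. The ratio was higher in MESC in 31 of 52 genes measured in both (59.6%), against 67.4% of all genes.

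Reads continued past the annotated ends of ribosomal protein genes, and their density dropped within the next 5000 bp. In the 60 genes with no gene on the same strand in the next 5000 bp, the density in those 5000 bp was 0.845 of the whole-gene density in MESC and 0.832 in MEF at the median, against 1.17 and 1.35 over all genes. It was above the whole-gene density in 25 genes in MESC (41.7%, background 59.1%) and in 23 in MEF (38.3%, background 67.1%). Near the end the comparison depended on the window. In the bin from 500 to 1000 bp the median was 1.76 times the whole-gene density in MESC and 1.17 in MEF, against 1.39 and 1.17 over all genes. In the bin from 4500 to 5000 bp it was 0.0552 and 0.0446, against 0.216 and 0.418. Over the first 2000 bp alone, ribosomal protein genes had 1.64 in MESC and 1.39 in MEF, against 1.51 and 1.44 over all genes. In MESC the order of the ribosomal protein genes and all genes thus turned over these 2000 bp. Set against the last 500 bp of the gene instead of the whole gene, the density in the 5000 bp was 1.26 in MESC and 1.13 in MEF. This last setting was not run over all genes, so it gives no comparison with them.

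**Figure D4:**
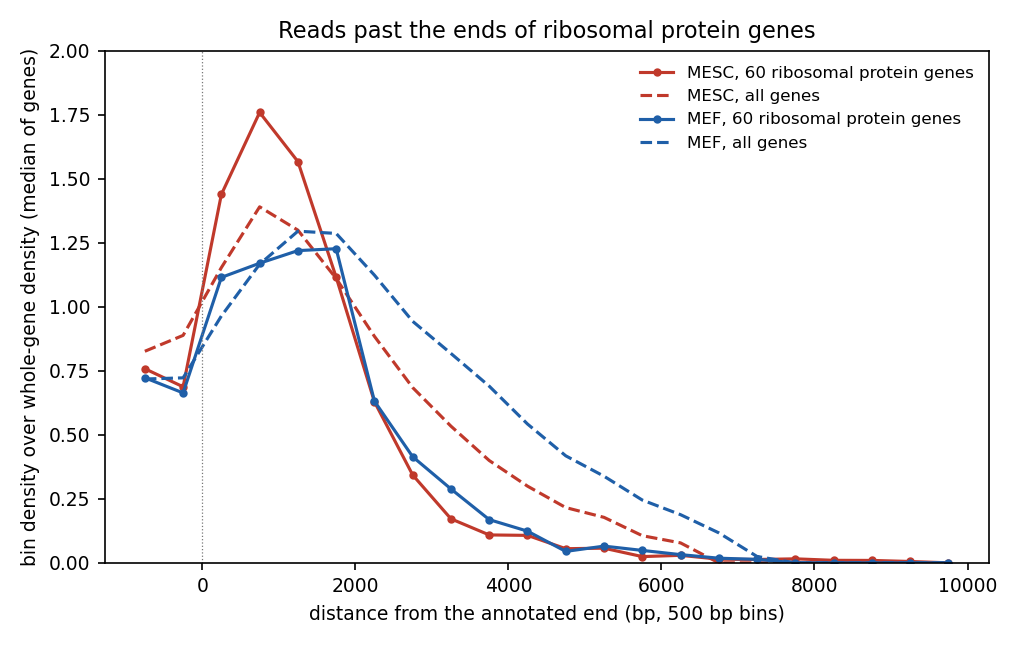
Density in 500 bp bins around the annotated end, divided by the whole-gene density of the same gene, as the median over 60 ribosomal protein genes (solid) and over all genes tested (dashed). The solid lines rise to 1.76 in MESC and 1.23 in MEF within 2000 bp after the end and lie below the dashed lines between 2000 and 5000 bp.

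Rpl6, a large-subunit gene, had one of the highest values past its end, with 1230 reads there in MESC and 573 in MEF, 2.39 times (2.15 to 2.66) and 2.55 times (2.17 to 3.00) its whole-gene density. Rpl29 had 826 and 523 reads, 2.41 and 2.03 times, and Rplp1 had 1533 and 988 reads, 1.42 and 2.48 times. Low values were found in Rps28, with 139 and 91 reads, 0.122 and 0.157 times, in Rpl36a, with 0.171 and 0.242, and in Rps26, with 0.317 and 0.163. The ratio was higher in MEF in 22 of the 60 genes (36.7%), against 60% of all genes.

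Fewer exon reads were counted per kb where the sequence is not unique. At the median gene 53.2% of exon positions begin a 35-base window that occurs once in the genome, against 98.4% of intron positions and against 98.0% of exon positions in mitochondrial ribosomal protein genes. In MESC, exon positions with a unique window held 201 reads per kb summed over the genes, and those with repeated windows 68.3. In MEF these were 104 and 32.9. The median ratio of exon to intron density was 0.654 in MESC and 0.683 in MEF over all positions, and 1.04 in both over unique positions only. Over all genes, with no such restriction, it was 1.59 and 1.45. Exon windows of Rps6, the protein phosphorylated by S6 kinase, were unique at 19.8% of positions and those of Rpl29 at 24.3%. Rps6 had 26.0 RPKM in MESC over the gene and 33.7 over its unique positions.

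**Figure D5:**
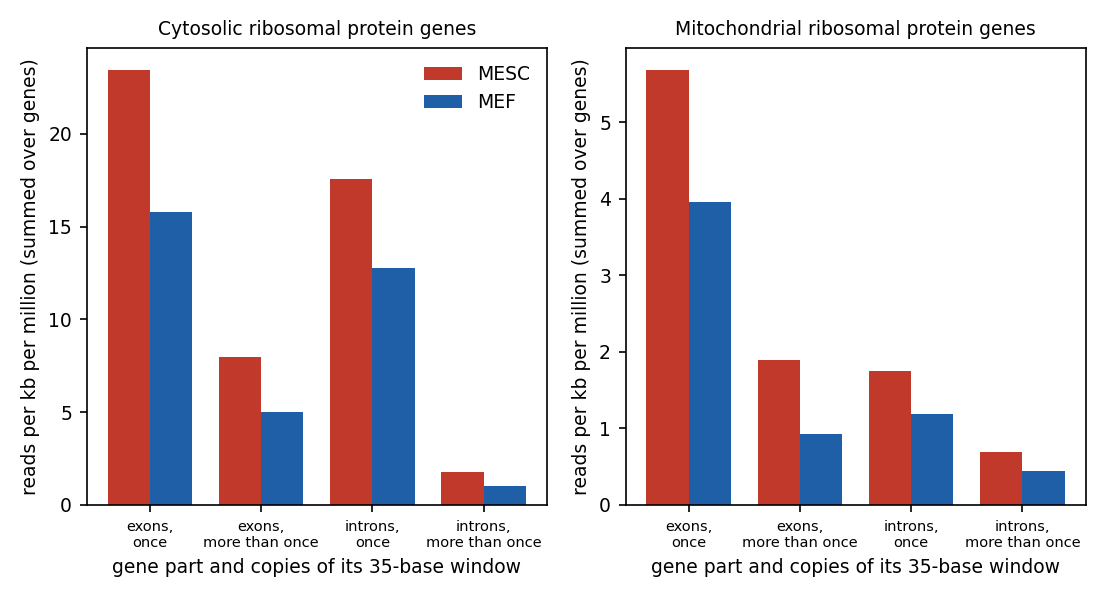
Density in RPKM, summed over genes, at exon and intron positions whose 35-base window occurs once or more than once in the genome, for cytosolic (left) and mitochondrial (right) ribosomal protein genes. In the left panel exons with repeated windows stand at 7.96 in MESC and 5.00 in MEF, against 23.5 and 15.8 for exons with unique windows.

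Of the 83 genes, 30 held 58 annotated snoRNA genes in the model. Reads that began within a snoRNA were 2.64% of the reads in ribosomal protein genes in MESC (2.50 to 2.79) and 1.91% in MEF (1.75 to 2.09). The 28 hosts tested had a median log2 ratio of 0.58 and a median density of 20.4 RPKM in MESC, and the 50 genes without a snoRNA had 0.43 and 17.1. Rpl4, with 5 snoRNAs, had 20.8 and 14.8 RPKM. With reads in small RNA genes left out, the median log2 ratio of all 78 genes was 0.46.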

How the data were processed

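Per the series' design text and the file headers, reads were aligned by the authors with Eland to mm9, reads in repeats similar to rRNA were removed, and the libraries of a cell type were pooled. How multiple matches and duplicates were treated, and which Eland version ran, is not given in the sources used here. Each line of a deposited file is 1 read, so the unit is a raw count. The listed position was checked as the 5′ end: 93.0% of sampled reads in MESC and 95.5% in MEF matched NCBIM37 (mm9) with at most 2 mismatches.

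The 5′ ends of reads were counted on the strand of the longest protein-coding transcript per gene. Windows were 50 bp before to 300 bp after the start, 500 bp upstream antisense and 5000 bp past the end, with minimums of 50 reads per gene and 20 per promoter in 1 library. A MESC over MEF ratio used 3 reads for any lower count, and the index, antisense and past-end ratios used the counts as they were. The edgeR test planned for separable samples could not be run on pooled files, so edgeR (4.0.16) served for TMM factors only. Python 3.11.15, numpy 2.4.6, pandas 2.3.3, scipy 1.17.1 and numba 0.67.0 were used, and ratios and windows were tested on simulated data.

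Named genes are the extremes of whole-gene ratio (6 at each end), density (6 highest, 3 lowest), index (5 at each end), antisense (3) and past-end ratio (3), the paralogs with their parents, Rps20 and up to 3 per other list. Any other gene was picked with its values in view, and some genes are not reported here. The members and lists were chosen with earlier results of these data known. Alternatives covered duplicates, depth, read length, gene model, scaling, minimums, gene parts, small RNA genes, starts and window sizes.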

Additional observations from a re-analysis of the deposited data

How the results depend on the processing

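No paired analysis was possible because the deposited files pool the samples of each cell type, and leaving out a replicate was not run for the same reason. Of the alternatives' values for medians and counts, 104 were close to the reported one and 32 moved. The causes were not tested except where the setting itself sets the value. Genes at least 2-fold denser in MESC over the whole gene numbered 2 of 78, against 17.6% of all genes. Shares of all genes at each setting follow in brackets. The count was 0 with each position counted once (15.0%) and 1 with 35-base MESC reads (13.7%). It was 1 with median-ratio scaling (12.8%), with TMM scaling (13.3%) or without loci similar to ribosomal DNA (15.9%). With 36-base reads (added after seeing the data) it was 5 (15.3%). It was 4 of 76 in introns (17.4%), 4 of 75 downstream of the promoter (18.7%), and 11 of 60 in exons (19.3%). The median log2 ratio of 0.49 was 0.24 with median-ratio and 0.27 with TMM scaling, which move all genes from 0.25 to 0.00 and 0.03. With loci similar to ribosomal DNA left out of the totals it was 0.41, and 0.17 over all genes. For MEF the count of 0 became 1 of 80 without a read minimum (Rpl39l), against 12.7% of all genes. At promoters the genes denser in MESC were 8 of 70, against 20.5% of all promoters. They were 0 of 67 with each position once (11.5%), 5 of 65 with 35-base reads (14.2%) and 14 of 66 with 36-base reads (16.4%). They were 5 of 70 with median-ratio scaling (14.6%) and 4 of 30 with a minimum 4 times as high (18.6%). The 1 denser in MEF (all promoters 9.29%) was 0 with 35-base reads (14.6%), the higher minimum (7.76%) or the busiest start (10.2%). It was 2 with 36-base reads (15.4%), and 3 with median-ratio scaling (13.4%), TMM scaling (12.5%) or no minimum (9.39%). The index in MESC (1.50) was 1.95 with 36-base reads and 2.25 with the busiest start. Past the end, 0.845 and 0.832 became 1.64 and 1.39 over 2000 bp. They became 1.26 and 1.13 against the last 500 bp of the gene (added), a setting not run over all genes. Exon over intron density, 0.654 and 0.683, was 1.04 and 1.04 at unique positions. Of the values of named genes, 432 kept their side of the threshold, 8 moved past it, 6 moved back and 0 reversed. Added alternatives also dropped the promoter minimum of the index (1.43 and 1.70), left out the longest models and those with a distant busiest start (median 0.49), took CCDS transcripts, and left out Rps29 from the antisense values. Depth limits the promoter values: 70 of 80 genes passed the minimum of 20 reads in 1 library.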

Other observations

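Genes of related functions were compared in the same way. The 67 mitochondrial ribosomal protein genes tested had a median log2 ratio of 0.50, and 9 were at least 2-fold denser in MESC and 0 in MEF, where the share of all genes was 17.6% for MESC and 12.2% for MEF. The highest were Mrpl34 (98 against 17 reads, 4.42-fold, 2.62 to 7.89), Mrps12 (88 against 23, 2.93-fold) and Mrpl51 (199 against 61). Their median density was 2.57 RPKM in MESC and 1.95 in MEF. Of 33 genes for ribosome assembly and RNA polymerase I, 5 were at least 2-fold denser in MESC and 0 in MEF, near the all-gene share of 17.6% for MESC, with a median of 0.51. Dkc1, the pseudouridine synthase of snoRNA particles, had 398 against 127 reads (2.40-fold, 1.96 to 2.96). Polr1b, a polymerase I subunit, had 582 against 194 (2.30-fold, 1.95 to 2.72), and Rrn3, its initiation factor, 1042 against 356 (2.24-fold, 1.99 to 2.54).

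The 16 translation factor and associated genes with TOP messages had a median log2 ratio of 0.41, all above 0 and none at least 2-fold different. Eef1b2 (1.70-fold), Eef1a1 (1.61-fold) and Btf3 (1.57-fold) stood highest. The 18 translation initiation genes had a median of 0.18, below that of all genes, with the interval above 1 in 12 and below 1 in 3 (all genes 47.5% and 26.5%), and Eif1ax (1.74-fold), Eif4a2 (1.62-fold) and Eif2s3x (1.45-fold) at the top. Of 10 regulators tested, Mycn was 7.73-fold denser in MESC (343 against 34 reads, 5.43 to 11.4) and Myc 2.69-fold denser in MEF (404 against 196 reads, 2.26 to 3.21), while Rptor, the mTOR partner, had 2623 against 1378 reads (1.46-fold).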
